A study of Mus musculus with 8 samples.

Results

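The genes described here are the aminoacyl-tRNA synthetases and their companion enzymes, taken as every gene that the deposited expression table places in the KEGG pathway of aminoacyl-tRNA biosynthesis. By that annotation there were 44 of 22063 genes, 9181 of which had any pathway. Of the 44, 20 were synthetases taken as cytosolic, 18 were synthetases with a symbol ending in 2, the usual mark of the mitochondrial enzyme, and 6 were enzymes that modify an amino acid after it has been loaded. RNA-seq had been carried out to learn which pathways tranilast, an anti-allergic small molecule, alters in mice on a high-fat and high-cholesterol (HFHC) diet. The control group was made up of 4 libraries with the label Control, and the tranilast group of 4 libraries titled Control+tranilast, which carry the treatment label Treatment. All 8 were mouse samples of genotype WT with Liver as the tissue. The HFHC diet comes from the series design, since the sample labels name neither diet nor dose, and they give no strain, sex or age. The study's methods describe male mice that received vehicle or tranilast by mouth during the later weeks of the diet, with more than 1 dose in use, and do not say which dose the sequenced mice received. The labels do not state that the libraries of a group came from separate animals, so p-values measure the spread between these samples, which may be technical.

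The measured transcripts did not match the labelled tissue. Of 10 hepatocyte marker genes, 9 were found in the table, and together they held at most 0.000191% of the counts of any library. Cps1, Hnf4a and Serpina1a, which define hepatocytes, had 0 counts in all 8 libraries, and the most abundant of the list, Ttr, had between 0 and 17 counts. In contrast, the 10 markers of macrophages made up from 0.912% to 0.995% of every library, led by Lyz2 with between 51267 and 68975 counts per library. Clec4f, Timd4 and Vsig4, markers of the resident macrophages of the liver (Kupffer cells), had 0 counts throughout. Markers of endothelial, stellate, bile duct, T, NK and B cells each held at most 0.000174% of a library. The libraries are therefore named below by their treatment label and not as liver. The summed macrophage share overlapped between the groups, but single markers moved both ways. On the scale used below, Adgre1 and Cd68 were higher in every tranilast library, with log2 fold changes of 0.21 and 0.16, and Fcgr1 at -1.42, Spi1 at -0.40, Itgam at -0.28, Csf1r at -0.16, Lyz2 at -0.13 and Cd14 at -0.07 were lower. Scaling by library size alone moved the median of all genes up by 0.116, more than the fall of Cd14 and close to that of Lyz2. The falls of Cd14 and Lyz2 therefore depend on the scaling. Mertk and Mrc1 had at most 3 counts in any library. Of the 4 neutrophil markers, which held between 0.00041% and 0.000569% of the control libraries and between 0.000697% and 0.000876% of the tranilast libraries, Csf3r made up nearly all, with 63 to 83 counts against 84 to 128. S100a9 had 0 counts in all libraries, and Ly6g and S100a8 had at most 1.

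The 8 libraries held between 12053036 and 15618789 estimated counts, with between 14585143 and 15618789 in the control group and between 12053036 and 14679384 in the tranilast group. Levels are given as CPM, counts scaled to the library total times its TMM factor. A gene with 0 counts could at this depth have up to 3 by counting error alone, the only error covered here, which is between 0.192 and 0.249 CPM by library total alone. All 44 members passed the expression filter, and the lowest count of any member in any library was 105 and the highest 6788. In bulk RNA, fewer cells of a type and less RNA per cell cannot be told apart, so that each value below is a level in the whole sample.

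Aminoacyl-tRNA synthetases join each amino acid to the transfer RNA that carries its codon's complement, and so supply the charged tRNAs that ribosomes read. They fall into class I and class II, which have unrelated catalytic folds. Most amino acids are served by a pair of nuclear genes, one for the enzyme of the cytosol and one for that of the mitochondrion, while glycine and lysine are served in both compartments by the products of a single gene. In mammals several cytosolic enzymes sit in a multisynthetase complex held together by scaffold proteins. Uncharged tRNA activates the kinase GCN2, which phosphorylates eIF2 and raises translation of the transcription factor ATF4, and many synthetase genes are known ATF4 targets.

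Tranilast was accompanied by changes in opposite directions within the family. Of the 44 members, 18 were higher and 8 were lower in the tranilast group at an adjusted p-value under 0.05, and 18 did not pass. This share of 59.1% is read against the background of this comparison, in which 57.0% of the 10770 genes tested were called, 28.2% higher and 28.8% lower, so that the number of members called was near that of genes in general. The share called higher was 40.9% of the members and the share called lower 18.2%. The median log2 fold change was 0.09 over the members, against 0.008 over all genes tested. The changes were modest. The log2 fold changes ran from -0.75 for Vars to 0.65 for Cars, 3 members passed an absolute value of 0.5, and 0 passed the 1.5 that the study set as its threshold. The median standard error of a member was 0.051. The 4 tranilast values lay above all 4 control values in 16 members and below them in 8, where 49.8% of all genes tested had groups that did not overlap in either direction.

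**Figure D1:**
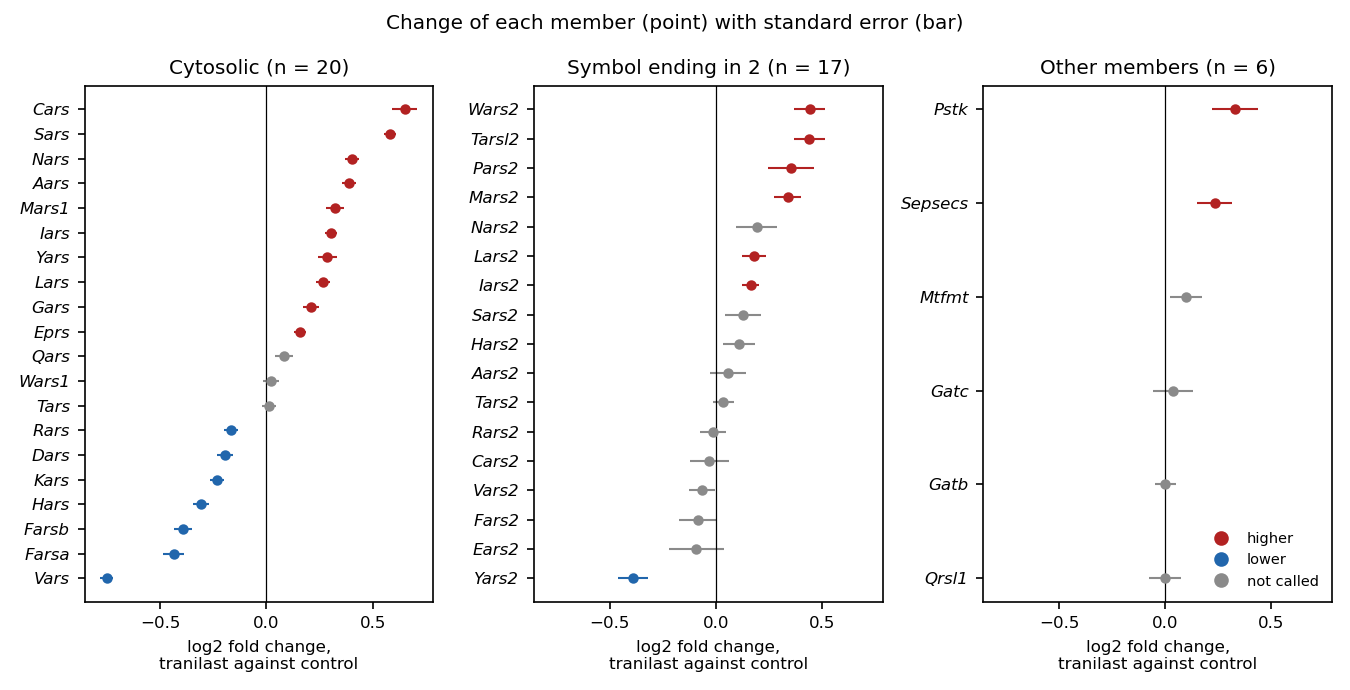
Each point is the log2 fold change of 1 member in the tranilast group against the control group (n = 4 libraries each) and each bar its standard error, for 20 cytosolic synthetases, 17 synthetases with a symbol ending in 2 and 6 other members. Red marks genes called higher, blue genes called lower and grey genes that did not pass; the cytosolic genes spread from -0.75 to 0.65.

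The balance between rises and falls depended on how the libraries were scaled. The main analysis used the TMM method, whose factors ranged from 0.956 to 0.965 for control libraries and from 1.037 to 1.045 for tranilast libraries. With library size alone the median of all genes moved up by 0.116 on the log2 scale, and 26 members were higher and 6 lower, so that 81.2% of the called members were higher instead of 69.2%. Over all genes the share of higher calls was 49.5% with TMM, and it reached 62.6% for upper-quartile factors, 70.5% when FPKM plus 1 was used and 70.9% for library size alone. The summed level of the 44 members went with TMM scaling from 4396 ± 20.1 to 4576 ± 66.7 CPM (SD, n = 4 each), a difference of 4.1%. As a plain share of the library, without that scaling, the members took between 0.418% and 0.426% of the counts in the control group and between 0.467% and 0.486% in the tranilast group, a difference of 12.9%. Changes below are relative to the TMM scale, and ratios between members of the same library, which need no scaling, are given beside them.

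The cytosolic synthetases changed in both directions. Of 20, 10 were higher, 7 were lower and 3 were not called. The 17 called genes were those whose groups did not overlap, against 49.8% of all genes tested. The share called was 85.0%, with 50% higher and 35% lower, while among the 4028 tested genes with a mean level in the same range, from 53.1 to 403 CPM, 69.0% were called, 23.4% higher and 45.6% lower. Adjusted p-values of the 17 genes ran from 2.9e-13 to 0.00027 (edgeR's quasi-likelihood test, Benjamini-Hochberg adjusted). The median log2 fold change of the 20 was 0.12 with a standard deviation of 0.37, and it was above 0 under every scaling tried. The rises and falls partly cancelled, and the summed level went from between 3628 and 3667 CPM in the control libraries to between 3698 and 3845 CPM in the tranilast libraries, a difference of 3.7% with TMM scaling and of 12.4% with library size alone.

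Cars and Sars, the enzymes for cysteine and serine, rose most. Cars (ENSMUSG00000010755, chr7:143557230-143600090, minus strand of GRCm38) had 559, 578, 656 and 597 counts in the control libraries and 853, 948, 746 and 1083 in the tranilast libraries. Every tranilast library was above every control library, also before scaling. Its level went from 41.4 ± 1.85 to 64.9 ± 5.6 CPM (SD, n = 4 each), a log2 fold change of 0.65 (SE 0.06; edgeR's quasi-likelihood test, Benjamini-Hochberg adjusted p = 4.6e-08). Sars (ENSMUSG00000068739, chr3:108424865-108445209, minus strand), which also loads serine on the tRNA for selenocysteine, had 3152, 3271, 3230 and 3141 counts in the control group and 4721, 4545, 4065 and 5182 in the tranilast group. The lowest tranilast library, replicate 3, is also the one with the fewest counts in total, and it was still above all control libraries. The log2 fold change of Sars was 0.58 (SE 0.029; edgeR's quasi-likelihood test, Benjamini-Hochberg adjusted p = 1e-11), from 222 ± 5.05 to 332 ± 6.08 CPM (SD, n = 4 each).

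Nars and Aars followed. Nars (ENSMUSG00000024587), the enzyme for asparagine, had 3027, 3038, 3088 and 3046 counts in the control group and 3844, 3773, 3421 and 4562 in the tranilast group. The control libraries differed by little, and replicate 4 was the highest tranilast library. The log2 fold change was 0.40 (SE 0.034), from 211 ± 3.71 to 279 ± 12.3 CPM (SD, n = 4 each). Aars, the enzyme for alanine, rose by a log2 fold change of 0.39 (SE 0.033). The other cytosolic enzymes called higher were Mars1 (methionine) at 0.32, Iars (isoleucine) at 0.30, Yars (tyrosine) at 0.29, Lars (leucine) at 0.27, Gars (glycine) at 0.21 and Eprs, a single protein that serves glutamate and proline, at 0.16, all as log2 fold changes.

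Vars, the enzyme for valine, fell most. Its change was larger in size than that of Cars on the TMM scale, and smaller with upper-quartile factors, library size alone and FPKM. Vars (ENSMUSG00000007029, chr17:35000987-35016322, plus strand) had 6452, 6182, 6788 and 6471 counts in the control libraries and 3804, 3558, 3342 and 4146 in the tranilast libraries. It went from 448 ± 13 to 266 ± 6.04 CPM (SD, n = 4 each), a log2 fold change of -0.75 (SE 0.03; edgeR's quasi-likelihood test, Benjamini-Hochberg adjusted p = 2.9e-13). The groups were far apart, and all 4 tranilast libraries were close to one another. The ratio of Sars to Vars counts, a pair picked after its values were seen as the largest rise and fall among abundant members, was 0.489, 0.529, 0.476 and 0.485 in the control libraries and 1.241, 1.277, 1.216 and 1.250 in the tranilast libraries. The ratio was below 1 in every control library and above 1 in every tranilast library, and it needs no scaling.

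The subunits of phenylalanyl-tRNA synthetase fell together. This enzyme is built from the products of Farsa, the catalytic alpha subunit, and Farsb, the beta subunit. Farsa (ENSMUSG00000003808, chr8:84856989-84869257, plus strand) had 1378, 1271, 1382 and 1459 counts in the control group and 1000, 1027, 851 and 1038 in the tranilast group, with a log2 fold change of -0.44 (SE 0.05). Farsb (ENSMUSG00000026245, chr1:78417975-78488897, minus strand) had 1894, 2016, 1867 and 1984 counts in the control group and 1417, 1407, 1346 and 1533 in the tranilast group, with a log2 fold change of -0.39 (SE 0.042). In neither gene did the groups overlap, and the genes lie on different chromosomes. Their adjusted p-values were 6.1e-07 and 3.2e-07 (edgeR's quasi-likelihood test, Benjamini-Hochberg adjusted).

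Hars, the enzyme for histidine, was the next of the cytosolic set to fall. Hars (ENSMUSG00000001380) had 1841, 1910, 1969 and 1901 counts in the control group and 1483, 1574, 1312 and 1566 in the tranilast group, without overlap, and a log2 fold change of -0.31 (SE 0.039). Its mitochondrial partner Hars2 lies beside it on the opposite strand, and the annotated genes share 198 bases. The estimated counts of both genes were not whole numbers in 5 libraries. Some reads may have been divided between genes, which was not tested, and reads of the shared stretch are uncertain. The falls of Dars, for aspartate, and Rars, for arginine, were small. Rars (ENSMUSG00000018848, chr11:35808381-35834506, minus strand) had 3050, 3283, 3320 and 3129 counts in the control group and 2883, 2708, 2373 and 3024 in the tranilast group, and its log2 fold change was -0.17 (SE 0.033), and that of Dars -0.19 (SE 0.036). The tranilast libraries were lower in both genes, but the calls were lost with library size alone, where the log2 fold changes were -0.052 for Rars and -0.078 for Dars, and with FPKM values.

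The enzymes that serve both compartments from 1 gene went in opposite directions. Gars (ENSMUSG00000029777, chr6:55038007-55079500, plus strand) had 2387, 2600, 2589 and 2348 counts in the control group and 2757, 2806, 2380 and 3154 in the tranilast group. Raw counts overlapped in tranilast replicate 3, the smallest library, and CPM did not overlap. Kars (ENSMUSG00000031948, chr8:111993443-112011323, minus strand), the enzyme for lysine, had 2512, 2603, 2865 and 2557 counts in the control group and 2192, 2105, 1932 and 2429 in the tranilast group. All tranilast libraries were below the control libraries. The log2 fold changes were 0.21 (SE 0.037) for Gars and -0.23 (SE 0.034) for Kars, and the sum of both genes showed no such separation, with between 342 and 365 CPM in the control group and between 344 and 364 CPM in the tranilast group on the TMM scale. With library size alone the sum was higher in every tranilast library. The 3 cytosolic enzymes that were not called were Qars (glutamine) at 0.08, Wars1 (tryptophan) at 0.02 and Tars (threonine) at 0.01 on the log2 scale, each with overlapping groups.

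**Figure D2:**
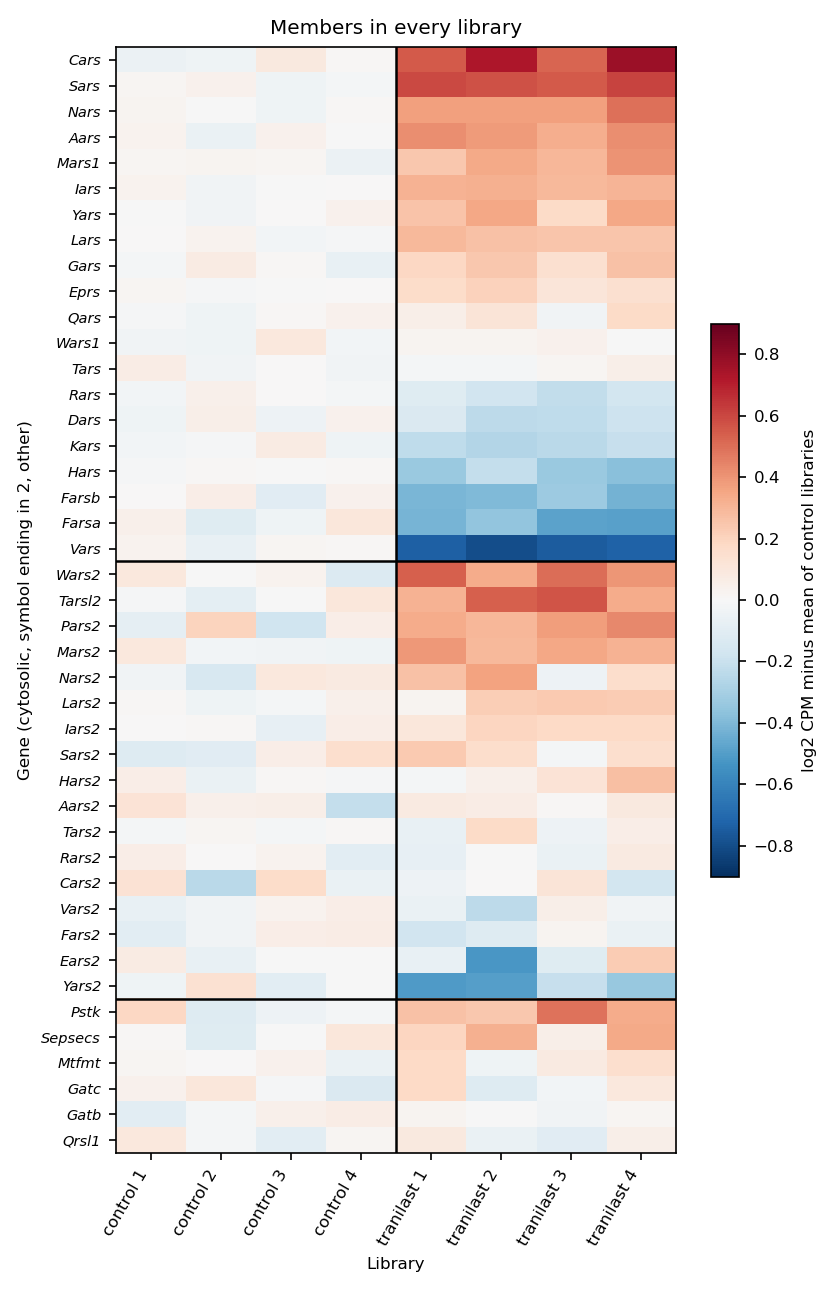
Each row is a member and each column a library; the colour gives the log2 CPM minus the mean of the 4 control libraries, red above and blue below, with cytosolic synthetases on top, then symbols ending in 2, then the other members. Vars is the darkest blue row and Cars and Sars the darkest red rows among the cytosolic genes, by log2 fold changes of -0.75, 0.65 and 0.58.

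Neither the complex nor the class separated the directions. Of the 8 cytosolic synthetases in the multisynthetase complex, Mars1, Iars, Lars and Eprs were higher, Rars, Dars and Kars were lower and Qars was not called. Their summed level was between 1596 and 1604 CPM in the control group and between 1643 and 1702 CPM in the tranilast group. Among the 12 cytosolic genes outside the complex, 6 were higher and 4 lower, and the spread was wider, with a standard deviation of the log2 fold change of 0.44 against 0.23 inside it. Class I held 5 higher and 2 lower of 9 cytosolic genes, and class II 4 higher and 5 lower of 10. Among tested genes in the level range of the cytosolic set, 23.4% were higher and 45.6% lower, the background for these counts. The summed level of cytosolic class II genes was between 1676 and 1699 CPM in the control group and between 1789 and 1862 CPM in the tranilast group. That of class I was between 1553 and 1592 CPM and between 1497 and 1563 CPM, and it includes Vars, which went from 448 to 266 CPM. The median log2 fold change was 0.27 in cytosolic class I and -0.09 in cytosolic class II. With library size alone the sums of the complex and of both classes were higher in every tranilast library. These differences between sets were not tested. Of the 3 scaffold proteins of the complex, Eef1e1 fell with a log2 fold change of -0.36 (SE 0.044) and Aimp2 with -0.14 (SE 0.052), and Aimp1 was not called at 0.04 (SE 0.044). The groups overlapped for Aimp2, and its fall was little larger than the 0.116 by which library size alone moved the median of all genes. Its fall therefore depends on the scaling.

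Of the 18 synthetases with a symbol ending in 2, 6 were higher, 1 was lower and 11 were not called. With library size alone 10 were higher and 1 lower, where 4613 of the 10770 genes tested were higher and 1893 lower. With upper-quartile factors 7 were higher and 1 lower, against 3882 and 2321 of all genes. FPKM also gave 7 and 1, against 3958 and 1660 of all genes when 1 was added. In the main analysis 49.8% of all genes tested had groups that did not overlap. Of the 18, the groups overlapped in 12, and they did not in 5 of the 6 called higher and in the 1 called lower. The share called was 38.9%, with 33.3% higher and 5.56% lower, against 57.3% called, 31.8% higher and 25.5% lower among the 6753 tested genes with a mean level between 10.2 and 121 CPM, the range of these members. The median log2 fold change was 0.08, above 0 under every scaling tried, with a standard deviation of 0.21, and it was 0.053 without tranilast replicate 4. The median standard error was 0.073 against 0.036, so that a change of a given size was less likely to be called. The summed level was between 614 and 626 CPM in the control group and between 640 and 669 CPM in the tranilast group, a difference of 6.14% with TMM scaling and of 15.1% with library size alone.

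Wars2, the mitochondrial enzyme for tryptophan, and Tarsl2 rose most in this set. Wars2 (ENSMUSG00000004233, chr3:99141068-99239186, plus strand) had 326, 313, 334 and 286 counts in the control group and 445, 379, 386 and 439 in the tranilast group, with a log2 fold change of 0.44 (SE 0.073; edgeR's quasi-likelihood test, Benjamini-Hochberg adjusted p = 4.9e-05). Tarsl2 (ENSMUSG00000030515, chr7:65644898-65692091, plus strand) had 357, 345, 382 and 392 counts in the control group and 446, 513, 474 and 494 in the tranilast group, also with a log2 fold change of 0.44 (SE 0.073). Both were higher in all 4 tranilast libraries. Tarsl2 ends in 2 but encodes a threonine enzyme of the cytosol, so the name places it in the wrong set. A split of the members by the known place of the enzyme moved Tarsl2, set Gars and Kars apart and counted Qrsl1, Gatb, Gatc and Mtfmt as mitochondrial. By this split 19 were cytosolic, of which 10 were higher and 6 lower, and 21 were mitochondrial, of which 5 were higher and 1 lower. The shares called were 84.2% and 28.6%, against 57.0% of all genes tested, and no share at matched level was computed for this split. The medians were 0.16 and 0.04, and the part of each change in membership was not tested. The other rises were Pars2 (proline) at 0.35, Mars2 at 0.34, Lars2 at 0.18 and Iars2 at 0.16 on the log2 scale. In Lars2 the groups overlapped, and Pars2 was not called when FPKM replaced counts.

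Yars2, for tyrosine, was the only gene of the set that fell at this threshold. It (ENSMUSG00000022792, chr16:16302965-16309640, plus strand) had 579, 668, 592 and 604 counts in the control group and 418, 414, 458 and 510 in the tranilast group. All tranilast libraries were below the control libraries, and the log2 fold change was -0.39 (SE 0.071; edgeR's quasi-likelihood test, Benjamini-Hochberg adjusted p = 0.00014). Among the genes that were not called, Nars2, Sars2, Hars2, Aars2, Tars2, Rars2, Cars2, Vars2, Fars2 and Ears2 had log2 fold changes from -0.09 for Ears2 to 0.19 for Nars2. Ears2, for glutamate, had the widest standard error of them, 0.13, and tranilast libraries of between 105 and 196 counts.

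The 6 other members act on amino acids already attached to tRNA or on their donors. Pstk and Sepsecs, which turn serine on the selenocysteine tRNA into selenocysteine, were both called higher, with log2 fold changes of 0.33 (SE 0.11) and 0.23 (SE 0.081). The groups did not overlap for Pstk, which had between 119 and 144 counts in the control group and between 147 and 173 in the tranilast group, and they overlapped for Sepsecs. These were 2 of the 6, or 33.3%, where 51.3% of tested genes with a mean level between 10.2 and 43.3 CPM were called and 34.4% were higher. Without control replicate 2, tranilast replicate 2 or replicate 4 of tranilast, Sepsecs was not called, and Pstk was not called without tranilast replicate 3. Qrsl1, Gatb and Gatc, the subunits of the amidotransferase that makes mitochondrial glutaminyl-tRNA, and Mtfmt, which formylates the mitochondrial initiator methionine, had log2 fold changes of 0.00, 0.00, 0.04 and 0.10, and none of these 4 was called. Their standard errors were between 0.051 and 0.095.

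Partners for the same amino acid are described here by their calls and by the ratio of their counts. Among the members reported singly there were 13 pairs of a cytosolic gene and the gene with the same symbol and a final 2. The cytosolic partner was called in 11 and the mitochondrial partner in 5, and the log2 fold changes had the same sign in 10. Some of these signs rest on values near 0. Those of Aars2, Rars2, Tars and Vars2 changed under other scalings or with a library left out. The share of equal signs among other gene pairs was not computed. Of tested genes, 69.0% were called in the level range of the cytosolic set and 57.3% in that of the set ending in 2. The median standard error was 0.036 and 0.073 in these sets, so equal changes were less likely to be called in the mitochondrial partner. In 4 pairs both were called. Iars and Iars2, Lars and Lars2, and Mars1 and Mars2 were higher together, and Yars was higher while Yars2 was lower. The log2 ratio of Yars to Yars2 counts was 1.11, 0.91, 1.18 and 1.12 in the control libraries and 1.85, 1.93, 1.46 and 1.78 in the tranilast libraries. This ratio does not depend on scaling, and the groups were apart. For valine the log2 ratio of Vars to Vars2 was 3.51, 3.38, 3.39 and 3.36 in the control group and 2.73, 2.84, 2.61 and 2.71 in the tranilast group. Tryptophan was the case in which the mitochondrial gene rose and the cytosolic gene was not called, and the log2 ratio of Wars1 to Wars2 was 2.63, 2.71, 2.82 and 2.86 in the control group and 2.25, 2.45, 2.29 and 2.36 in the tranilast group, again apart. Wars1 was called higher with upper-quartile factors, library size alone and FPKM.

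Across the 13 pairs, the ratio was higher in all tranilast libraries than in all control libraries for alanine, cysteine, isoleucine, serine and tyrosine, and lower for histidine, tryptophan and valine. Of single genes, 49.8% had groups that did not overlap, and the share among ratios of other gene pairs was not computed. The isoleucine groups were close, at most 1.04 in the control libraries and at least 1.07 in the tranilast libraries, and counts were not whole numbers for Iars2 in 8 libraries and for Cars2 in 3, so that the isoleucine and cysteine ratios carry the same limit as histidine. It overlapped for leucine, methionine, asparagine, arginine and threonine. The methionine pair was the closest of those with both partners called, with log2 fold changes of 0.32 for Mars1 and 0.34 for Mars2. For phenylalanine, whose cytosolic genes carry letters and have no partner by name, the log2 ratio of Farsa to Fars2 was between 2.53 and 2.76 in the control group and between 2.13 and 2.39 in the tranilast group, and that of Farsb to Fars2 between 2.96 and 3.22 and between 2.76 and 2.88. The ratio of Eprs to Ears2 overlapped. The difference between partners was not tested in any pair.

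**Figure D3:**
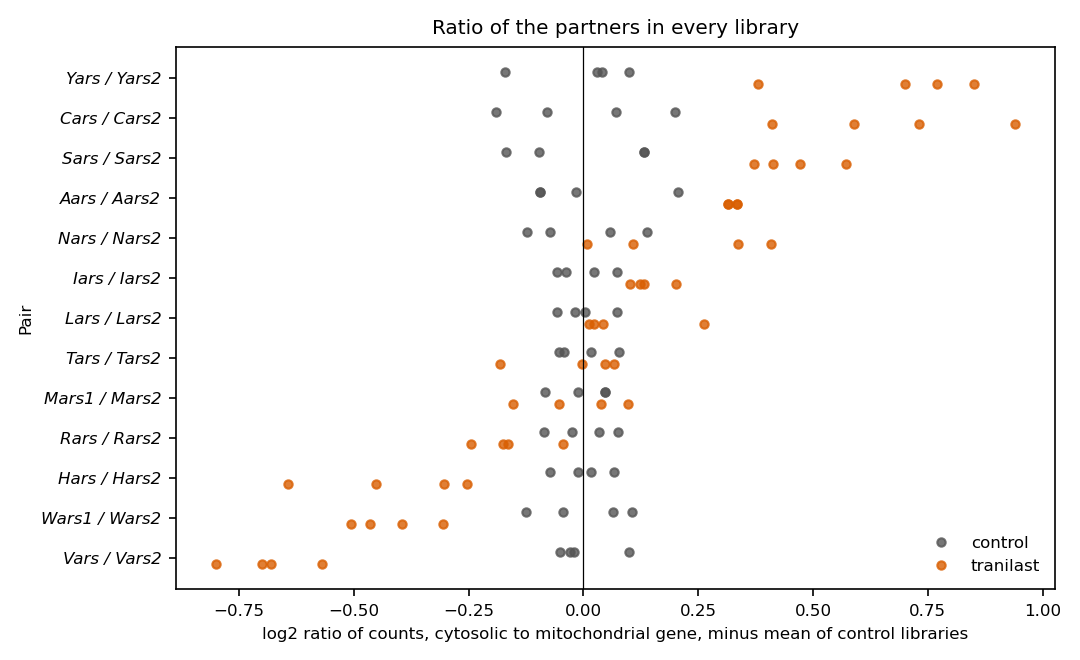
Each point is 1 library; the horizontal axis is the log2 ratio of the counts of the cytosolic gene to those of its mitochondrial partner, minus the mean of the 4 control libraries, for 13 pairs on the vertical axis (grey control, orange tranilast). The tranilast points lie to the right of all control points in 5 pairs and to the left of them in 3.

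Levels were compared between genes with FPKM, in which the authors scaled reads by transcript length and depth. Over all 8 libraries the cytosolic synthetases had a median of 61.3 FPKM and ranged from 21.5 FPKM for Cars to 158 FPKM for Sars. The set ending in 2 had a median of 9.75 FPKM and ranged from 2.36 FPKM for Mars2 to 34.5 FPKM for Tars2, and the other members had between 4.4 and 16.8 FPKM. In the control group Vars, at 117 ± 6.41 FPKM, and Sars, at 124 ± 6.19 FPKM (SD, n = 4 each), were the highest and close to each other. In the tranilast group Sars was at 192 FPKM, Nars at 118, Rars at 97.1 and Vars at 73 FPKM. Eprs at 90.3, Gars at 86.9, Kars at 80.2, Dars at 77.8 and Qars at 77.7 FPKM were also above Vars in that group. The cytosolic partner was above its mitochondrial partner in all 13 pairs of the control group, by a ratio of FPKM from 1.18 for tyrosine and 1.19 for threonine to 15.8 for methionine and 16.7 for asparagine, with a median of 6.36. Cars, the gene with the largest rise, was thus the least abundant of these 20 synthetases, while Tarsl2, a cytosolic enzyme counted by name in the other set, had 9.5 FPKM. Cars stood at 1.21 times the level of Cars2 in the control group.

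**Figure D4:**
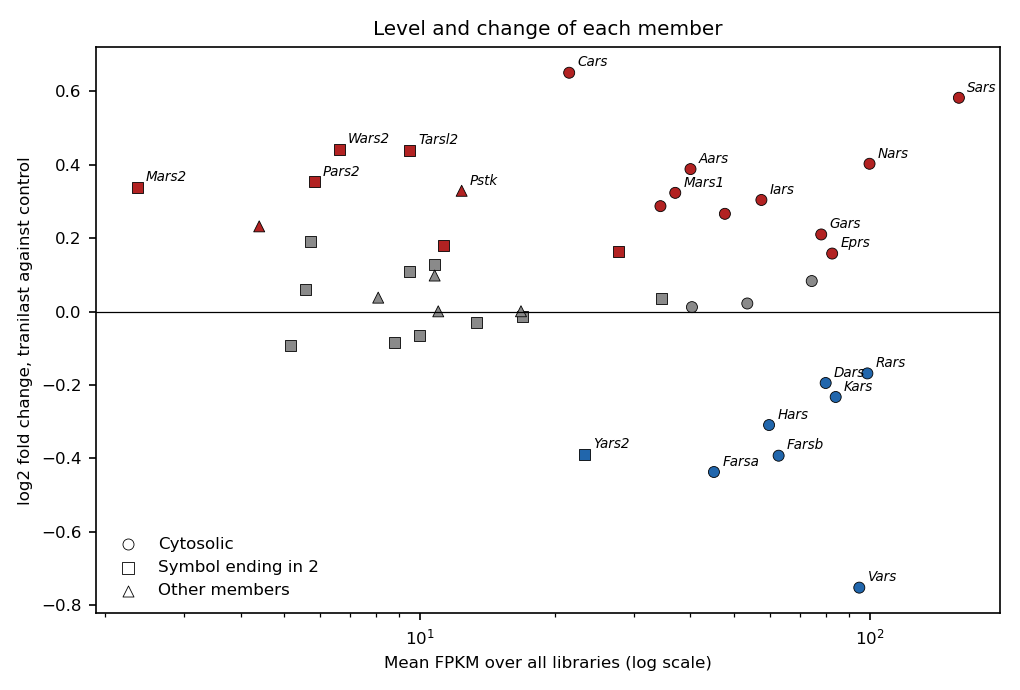
Each symbol is a member, with its mean FPKM over the 8 libraries on a log axis and its log2 fold change in the tranilast group on the vertical axis (circles cytosolic, squares symbol ending in 2, triangles other members; red higher, blue lower, grey not called). Sars at 158 FPKM rose and Vars at 94.9 FPKM fell, so that genes of high level are found on both sides of 0.

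Promoter sequences were searched because members may share sequence features that the choice by pathway did not use. The letters searched were TGATGNAA on either strand, the core of the composite site that C/EBP and ATF factors are known to bind, in the 300 bases from 250 before to 50 after the start of each gene in RefSeq (GRCm38.p6). By symbol, 32 of the 44 members were matched. Among those not matched were Cars, Nars, Pars2, Lars, Sepsecs, Hars2, Wars1, Gatb, Rars, Hars and Vars. The letters were found in 5 of the 32, or 15.6%, and in 3.97% of 32851 promoters and 4.51% of 27025 genes overall. The 5 were Aars, Gars, Iars, Tars and Yars, all of them cytosolic, among 13 cytosolic members matched, and there were 0 among 15 matched members ending in 2. Aars, Gars, Iars and Yars were 4 of the 13 matched members called higher, and the other 9, Sars among them, lacked the letters. They were found in 0 of the 5 matched members called lower and in Tars alone of the 14 not called. In Iars and Yars the match lay just after the start, from base 8 to 15 and from base 4 to 11. Aars had 1 match from base 112 to 105 before the start and 1 from base 10 to 17 after it. A match is a description of the sequence, and no binding was measured.

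The stretches before the start of Gars and Tars are shown because they place the same letters close to the start of a gene that rose and of one that was not called on the TMM scale. Tars was called higher with library size alone and with FPKM. Both stretches are written 5′ to 3′ on the strand of the gene, and capitals mark the match, which reads as TGATGNAA on the opposite strand. The stretch of Gars covers chr6:55037751-55038000 on the plus strand of GRCm38.p6, with the match from base 30 to 23 before the start. That of Tars covers chr15:11399666-11399908 on the minus strand, with the match from base 15 to 8 before the start. Both matches lie outside the annotated exons, and the last bases before the start of Tars are not shown.
Gars: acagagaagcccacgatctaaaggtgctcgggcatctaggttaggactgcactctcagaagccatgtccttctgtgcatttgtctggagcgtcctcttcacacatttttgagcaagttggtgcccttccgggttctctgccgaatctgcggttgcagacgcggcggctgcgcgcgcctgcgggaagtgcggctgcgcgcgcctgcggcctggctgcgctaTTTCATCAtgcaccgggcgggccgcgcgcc
Tars: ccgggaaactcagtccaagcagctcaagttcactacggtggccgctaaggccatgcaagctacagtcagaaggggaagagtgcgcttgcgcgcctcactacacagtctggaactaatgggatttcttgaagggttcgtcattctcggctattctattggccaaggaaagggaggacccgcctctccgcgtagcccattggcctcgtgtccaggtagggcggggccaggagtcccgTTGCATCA

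Other genes of tRNA charging and translation were described from lists, for which the share of all genes called, 57.0%, is the measure. Of 5 cytosolic elongation factors, Eef2, which moves the ribosome along the message, rose by a log2 fold change of 0.23 (SE 0.018), and Eef1a1, the factor that brings charged tRNA to the ribosome, had 0.02 (SE 0.014). Eef1b2 at 0.02, Eef1g at -0.05 and Eef1d at -0.07 were not called either. Of 9 mitochondrial translation factors, Mrrf at 0.29 and Gfm2 at 0.17, which both act in ribosome recycling, were higher, Gfm1, the elongation factor G of mitochondria, was lower at -0.23, and 6 were not called. Of 9 genes for editing, end processing and export of tRNA, Dtd2 at 0.48, a D-aminoacyl-tRNA deacylase, and Elac1 at 0.34 were higher. Ssb at -0.32, the La protein that binds new tRNA ends, and Aarsd1 at -0.21, an editing enzyme, were lower, all as log2 fold changes. The groups overlapped for Elac1 and Aarsd1 and not for Dtd2 and Ssb.

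Genes of the response to amino acid shortage moved in 1 direction where they were called. Of 22 such genes tested, 17 were higher, 0 were lower and 5 were not called by edgeR's quasi-likelihood test, with a median log2 fold change of 0.50, where 28.2% of all genes tested were higher and 28.8% lower. This list too was drawn up with earlier results of these data known, which may partly fix its direction. The largest called value was that of Sesn2, a stress-induced regulator of mTORC1, at 1.91 (SE 0.081), and the smallest that of Phgdh, of serine synthesis, at 0.14 (SE 0.031). Atf4 was at 0.46 (SE 0.035) and Asns, which makes the substrate of Nars, at 0.60 (SE 0.044), both picked after their values were seen. Psat1, Shmt2, Nupr1, Eif4ebp1 and Slc7a5 were not called, and Vldlr was not tested because its counts were too low. The summed level was between 1990 and 2061 CPM in the control group and between 2416 and 2558 CPM in the tranilast group. The letters TGATGNAA were found in the promoters of 7 of 21 matched genes of this list, and the share over all genes is given above. The list is made of genes of this response, so its choice may partly fix the share with these letters. Of 7 genes of the eIF2 kinases, eIF2 and the regulators of GCN2, 4 were called, against 57.0% of all genes tested. Impact, an inhibitor of GCN2 activation, was higher at 1.04 (SE 0.055) together with Eif2ak3, the kinase PERK, at 0.31. Eif2ak2, the kinase PKR, was lower at -0.65 (SE 0.11) and Eif2s1, the alpha subunit of eIF2, at -0.32, and Eif2ak4, the gene of GCN2, was not called at 0.10 (SE 0.049).

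Proliferation genes, in a list made mostly of genes of G2 and mitosis, differed between the same groups. All 10 of the list were lower in the tranilast group, against 28.8% of all genes tested, with a median log2 fold change of -1.46, from -0.82 for Cdk1 to -2.58 for Plk1. Their summed level was 3878, 3710, 3860 and 3906 CPM in the control libraries and 1768, 1791, 1835 and 1795 CPM in the tranilast libraries. The gene with most counts was Mki67, at 1583 CPM in the control group and 807 CPM in the tranilast group, and none of the 10 was at 0. Outside the list, Ccne1 and Uhrf1, picked after their values were seen, were higher, with log2 fold changes of 0.39 and 0.26. Dbf4 and Mcm2, picked in the same way, were lower, at -0.65 and -0.08. The groups overlapped for Mcm2. Its fall was smaller than the 0.116 by which library size alone moved the median of all genes, so its direction depends on the scaling. The part of the proliferation genes in the result, and that of the macrophage markers and Csf3r, was not tested. The list was drawn up with earlier results known, so that its single direction may be partly fixed by that choice.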

How the data were processed

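RNA-seq libraries had been made from poly-A RNA by a paired-end TruSeq protocol per the study's methods, which name a HiSeq instrument where the labels name NovaSeq; the aligner, counter and genome build are not given in the sources used here. The authors deposited for each gene an estimated count, which need not be whole, and an FPKM value, scaled for transcript length and depth. Counts were rounded, and 30 rows without a symbol kept no name. Genes were filtered with filterByExpr by group, scaled by TMM and compared in edgeR 4.0.16 (quasi-likelihood test, no covariate, Benjamini-Hochberg adjustment over 10770 genes, called at an adjusted p under 0.05) in R 4.3.3. CPM are TMM-scaled, and log2 CPM of single libraries include a prior count of 0.5. Standard errors are the log2 fold change divided by the root of the F statistic. The code was tested on simulated data. Alternatives used limma 3.58.1, DESeq2 1.42.0, other scalings, filters and FPKM. Python 3.11.15, pandas 2.3.3, numpy 2.4.6 and matplotlib 3.10.9 were used. Gene coordinates are 1-based, from GENCODE M21 (GRCm38), matched by Ensembl identifier, and sequences are from RefSeq. Every member was named but 1, which is not reported here singly and stays in the counts and medians of the sets; counts in every library were given for the 5 highest and the 5 lowest called log2 fold changes, the 4 highest mean FPKM values and the genes serving both compartments, and in other lists the called genes with the largest and smallest change and any list of up to 5 in full. The members and lists were chosen with earlier results of these data known. Protein sequences were not analysed here.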

Additional observations from a re-analysis of the deposited data

Results flagged for a closer look

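In 6 of 88 groups, each the 4 libraries of 1 member under 1 label, a single library lay far from the other libraries of its group in log2 CPM. Chance gives about 1 in 20 such groups. Nars in tranilast replicate 4 was at 8.22, with the others at 8.09. Wars1 in control replicate 3 was at 7.30, with the others between 7.16 and 7.18, and Mars2 in control replicate 1 was at 4.64, with the others between 4.51 and 4.53. On the low side were Lars2 in tranilast replicate 1 at 5.35 (others 5.54 to 5.55), Iars2 in tranilast replicate 1 at 6.93 (7.01 to 7.02) and Mars1 in control replicate 4 at 6.53 (others at 6.60). The differences were small in absolute size, and 2 of the 6 fell in tranilast replicate 1. Nars, Lars2, Iars2, Mars1 and Mars2 remained called higher with any single library left out.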

How the results depend on the processing

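Of the 26 members called, 21 kept direction and call under all 18 alternatives, 5 lost the call under at least 1 and 0 reversed. The numbers of 18 higher and 8 lower were unchanged with RLE factors, DESeq2, limma-voom, no filter and a minimum of 10 counts in every library. Upper-quartile factors gave 21 higher and 8 lower, library size alone 26 and 6, and FPKM 22 and 6. Over all genes tested these were 3882 and 2321, 4613 and 1893, and, for FPKM plus 1, 3958 and 1660. In the set ending in 2 they were 7 and 1, 10 and 1, and 7 and 1. With the threshold on the Benjamini-Hochberg adjusted p of edgeR's quasi-likelihood test at 0.01, 14 were higher and 8 lower. Lars2, Pars2, Pstk and Sepsecs lost the call at this threshold, which is not among the 18 alternatives. Among the uncalled members, the call was gained by Wars1, Nars2 and Qars with upper-quartile factors, by these 3 and Tars, Tars2, Hars2, Sars2 and Mtfmt with library size alone, and by Wars1, Tars, Hars2, Sars2 and Mtfmt with FPKM. Rars and Dars lost the call with library size alone and FPKM, and Pars2 with FPKM. Sepsecs lost it in 3 cases, without control replicate 2, without tranilast replicate 2 and without tranilast replicate 4, and without tranilast replicate 3 Pstk lost it while Nars2 and Qars gained it.

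The median log2 fold change of the cytosolic set was 0.120 in the main analysis, 0.188 with upper-quartile factors, 0.237 with library size alone, 0.208 with FPKM plus 1, 0.210 with FPKM plus 0.1 and 0.158 when split by known place. That of the set ending in 2 was 0.084, and 0.152, 0.201, 0.191, 0.203 and 0.038 in the same order. With 1 library left out at a time the medians ran from 0.108 to 0.147 and from 0.053 to 0.094, the lowest of the latter without tranilast replicate 4. The cause was not tested.

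A paired fit with the replicate number as a replicate block gave 18 higher and 8 lower, with medians of 0.119 and 0.084. The labels do not say that equal numbers pair samples, and the correlations between control and tranilast libraries of the same number, over residuals from the group means, were -0.056, -0.032, 0.004 and 0.096.

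Among 17 of the members not called, 11 changed sign under at least 1 alternative. Their log2 fold changes were, with RLE size factors Qrsl1 -0.001, Gatb -0.001; with upper-quartile factors Rars2 0.055, Vars2 0.003, Cars2 0.037; with library size alone Fars2 0.032, Rars2 0.104, Ears2 0.024, Vars2 0.052, Cars2 0.086; with DESeq2 Qrsl1 -0.001, Gatb -0.001; with FPKM plus 1 Rars2 0.097, Ears2 0.000, Vars2 0.050, Cars2 0.068; with FPKM plus 0.1 Rars2 0.102, Vars2 0.054, Cars2 0.073; with no filter Qrsl1 -0.003, Gatb -0.002; with a replicate block Qrsl1 -0.002. Leaving out 1 library at a time gave ranges of Aars2 -0.009 to 0.1, Cars2 -0.108 to 0.025, Ears2 -0.220 to 0.028, Gatb -0.031 to 0.022, Gatc -0.008 to 0.088, Qrsl1 -0.031 to 0.033, Rars2 -0.043 to 0.010, Tars -0.000 to 0.032, Tars2 -0.012 to 0.069. The cause was not tested. The median standard error was 0.036 in the cytosolic set and 0.073 in the set ending in 2, and the part of depth in it was not tested.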
